A study of Mus musculus with 4 samples.

Results

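The homeostatic microglia genes described here are P2ry12, P2ry13, Gpr34 and Cx3cr1 (surface receptors), Siglech, Selplg and Tmem119 (other surface proteins), Olfml3 (a secreted protein) and Sall1 (a transcription factor). They were chosen by name as textbook markers of unperturbed microglia, and are 9 of the 32285 genes in the feature table. Each was followed per brain slice, as its unique molecular identifiers (UMIs, 1 per captured RNA molecule) per 10000 UMIs, and by distance from collagen-rich tissue.

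Spatial transcriptomes (Visium, in which a slide printed with barcoded spots captures RNA from a tissue slice laid on it) were measured on 4 capture areas that each held 2 separate pieces of mouse brain. The groups were 1 wild-type slice at rest (day 0), 1 wild-type slice 2 days post injury (dpi), 2 wild-type slices at 7 dpi, 2 wild-type slices at 21 dpi, and 2 slices at 21 dpi from mice of genotype Cthrc1(creER); R26(DTA), called deleters. Injury was photothrombotic (PT), in which light activates a dye that clots vessels of the cortex. In the deleters, a drug-inducible Cre made by cells that express Cthrc1, a myofibroblast gene, switches on diphtheria toxin A, and the study's methods state that these mice were set aside after a first clustering because deletion could not be detected. Tissue was fresh frozen, each slice came from a mouse of its own, and ages are not given in the labels. The rest and 2 dpi slices shared a capture area, and every other group had an area to itself, so group and area cannot be told apart between groups; comparisons of zones were made inside a slice.

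Microglia are the resident macrophages of brain tissue, and in the undisturbed brain they carry a set of receptors with which their fine processes sense neighbouring cells. P2ry12 and P2ry13 bind ADP released by damaged cells, Cx3cr1 binds the neuronal chemokine fractalkine, and Gpr34 binds lysophosphatidylserine. Transforming growth factor beta (TGF-beta), with the transcription factors Sall1 and PU.1 (gene Spi1), keeps this programme on, and microglia near damage or plaques are known to lower it while raising genes such as Apoe, Spp1 and Lpl, the disease-associated set.

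The 8 slices held 827 to 1726 spots and 11332780 to 23677298 UMIs, with a median of 12447 to 16158 UMIs per spot in 7 of them and 2633.5 at 2 dpi, where 375 spots (21.7%) had fewer than 1000 UMIs. Cthrc1, the gene that marks the cells targeted in the deleters, stood at 0.0638 and 0.0895 UMIs per 10000 in the deleter slices. It was at 0.124 and 0.120 in the 21 dpi wild-type slices, 0.240 and 0.446 at 7 dpi, 0.0940 at 2 dpi and 0.0942 at rest. These values rest on 82 to 603 UMIs a slice and are given without a test. A Visium spot can hold several cells of different types, and in such data fewer cells of a type and less RNA per cell cannot be told apart.

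The genes lie on chromosomes 3, 5, 7, 8, 9 and X (GENCODE vM21, mm10). P2ry12 (chr3:59216272-59262871, minus strand) and P2ry13 (chr3:59207892-59210882, minus strand) are neighbours 5389 bases apart, and both lie inside Med12l, which runs on the opposite strand. Tmem119 (chr5:113793729-113800516, minus strand) and Selplg (chr5:113818536-113832644, minus strand) are 18019 bases apart with no protein-coding gene between them. Olfml3 is at chr3:103722222-103738001, Cx3cr1 at chr9:119901616-120069879 and Sall1 at chr8:89027235-89044162, all on the minus strand. Siglech is at chr7:55768178-55778925 on the plus strand, and Gpr34 at chrX:13632089-13640858 on the plus strand, inside Cask on the opposite strand. Levels of P2ry12, P2ry13, Gpr34 and Cx3cr1, whose spans overlap other genes, rest on how reads were assigned there. For P2ry12, P2ry13 and Gpr34 the overlapping gene is on the opposite strand only. The span of Cx3cr1 also overlaps Gorasp1, Csrnp1 and Xirp1 on its own strand.

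Promoters are shown for 5 genes whose behaviour differed: P2ry12 and Siglech, which did not pass the test in fibrotic tissue, Cx3cr1 and Olfml3, which had the largest changes there at 7 dpi, and P2ry13, the neighbour of P2ry12. Each is the 250 bases before the RefSeq start (GRCm38.p6), read 5′ to 3′ on the gene's strand, with capitals marking GTCTG, the box bound by the TGF-beta effector SMADs, or GAGGAA, the core bound by PU.1, on either strand. RefSeq's table held 8 promoters of 6 of the 9 genes; Tmem119, Gpr34 and Selplg were not matched.
P2ry12 (chr3:59262986-59263235, minus): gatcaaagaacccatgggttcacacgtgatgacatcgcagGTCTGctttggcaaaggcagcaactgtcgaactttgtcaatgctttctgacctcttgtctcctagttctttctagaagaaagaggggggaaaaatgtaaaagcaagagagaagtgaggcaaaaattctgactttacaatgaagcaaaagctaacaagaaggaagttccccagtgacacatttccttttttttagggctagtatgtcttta
Siglech (chr7:55767934-55768183, plus): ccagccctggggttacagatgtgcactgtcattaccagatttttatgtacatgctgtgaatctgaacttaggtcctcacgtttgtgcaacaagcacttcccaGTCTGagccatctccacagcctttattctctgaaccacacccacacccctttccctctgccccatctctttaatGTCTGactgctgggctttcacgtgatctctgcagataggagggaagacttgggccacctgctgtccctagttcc
Cx3cr1 (chr9:120068297-120068546, minus): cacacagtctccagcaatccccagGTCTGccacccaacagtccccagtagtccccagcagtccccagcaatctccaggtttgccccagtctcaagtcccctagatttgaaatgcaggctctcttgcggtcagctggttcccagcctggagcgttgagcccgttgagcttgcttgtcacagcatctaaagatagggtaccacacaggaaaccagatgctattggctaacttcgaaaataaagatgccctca
Olfml3 (chr3:103738002-103738251, minus): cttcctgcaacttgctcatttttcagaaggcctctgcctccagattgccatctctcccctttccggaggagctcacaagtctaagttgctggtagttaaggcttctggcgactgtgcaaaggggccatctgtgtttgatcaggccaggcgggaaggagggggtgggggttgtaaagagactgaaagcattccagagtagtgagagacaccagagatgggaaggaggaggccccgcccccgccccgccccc
P2ry13 (chr3:59210883-59211132, minus): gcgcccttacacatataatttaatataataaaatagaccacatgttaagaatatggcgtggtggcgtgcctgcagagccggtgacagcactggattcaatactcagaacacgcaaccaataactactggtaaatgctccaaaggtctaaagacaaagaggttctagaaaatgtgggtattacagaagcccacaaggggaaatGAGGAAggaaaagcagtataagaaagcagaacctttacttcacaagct
GTCTG was in 4 of the 8 member promoters and in 42.2% of all 32851 promoters of that length. GAGGAA was in 1 of 8 against 23.3%, and the joint PU.1 and IRF motif in 0 of 8 against 2.30%. The Olfml3 window held none of the 3, which says only that these letters are not in these 250 bases, and a match is not evidence of binding.

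Across whole slices, most of these genes were lowest at rest, highest at 7 dpi and intermediate at 21 dpi. The slice values rest on 92 UMIs (P2ry13 at rest) to 3567 UMIs (Olfml3 in the second 7 dpi slice). Summed, they held 1.66 UMIs per 10000 at rest, 2.97 at 2 dpi, 7.23 and 7.14 in the 7 dpi slices, 3.76 and 4.16 in the 21 dpi wild-type slices, and 3.74 and 3.08 in the deleter slices. The 7 dpi slices stood above every other slice in this sum, and the rest slice was below every other.

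Olfml3, a secreted olfactomedin-domain glycoprotein, had 0.196 UMIs per 10000 at rest, 0.858 at 2 dpi, 2.15 and 2.64 at 7 dpi, 1.04 and 1.21 in the 21 dpi wild type, and 0.973 and 0.802 in the deleters. Its rest value lay far below the others, and its 7 dpi values did not overlap any other group. Cx3cr1, the fractalkine receptor, had 0.172 at rest, 0.439 at 2 dpi, 1.07 and 1.10 at 7 dpi, 0.618 and 0.720 at 21 dpi, and 0.651 and 0.513 in the deleters. Tmem119, a membrane protein widely used to stain microglia, had 0.114, 0.249, 0.695, 0.818, 0.409, 0.376, 0.398 and 0.372 in the same order. Both followed the order rest, 2 dpi, 21 dpi, 7 dpi, with the deleter slices close to the 21 dpi wild type.

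P2ry12, the ADP receptor that steers processes towards injury, was different: it had 0.40 UMIs per 10000 at rest, 0.272 at 2 dpi, 0.689 and 0.501 at 7 dpi, 0.373 and 0.476 in the 21 dpi wild type, and 0.377 and 0.358 in the deleters. The rest slice sat between the 21 dpi wild-type slices, and the 2 dpi slice was the lowest of all. Siglech, a sialic-acid-binding lectin that plasmacytoid dendritic cells also carry, had 0.162 at rest, 0.157 at 2 dpi, 0.493 and 0.235 at 7 dpi, 0.186 and 0.195 at 21 dpi, and 0.222 and 0.157 in the deleters. Apart from 1 high 7 dpi slice, its slices ranged from 0.157 to 0.235.

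P2ry13, the second ADP receptor, ran from 0.0562 at rest through 0.0909 at 2 dpi to 0.204 and 0.190 at 7 dpi, and was 0.137 and 0.143 in the 21 dpi wild type and 0.128 and 0.0963 in the deleters. Gpr34, the X-linked lysophosphatidylserine receptor, ran from 0.235 at rest through 0.420 at 2 dpi to 0.902 and 0.679 at 7 dpi, and was 0.332 and 0.394 in the 21 dpi wild type and 0.386 and 0.267 in the deleters. Selplg, the P-selectin ligand that many leukocytes carry, was 0.205 at rest, 0.279 at 2 dpi, 0.648 and 0.742 at 7 dpi and 0.473 and 0.418 in the 21 dpi wild type, with 0.414 and 0.356 in the deleters. These 3 genes stood highest at 7 dpi. Sall1, a transcription factor of microglial identity, was 0.116 at rest, 0.209 at 2 dpi, 0.380 and 0.243 at 7 dpi, 0.197 and 0.229 in the 21 dpi wild type and 0.190 and 0.164 in the deleters. All 4 were lowest at rest and had both 7 dpi values above both 21 dpi wild-type values.

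**Figure D1:**
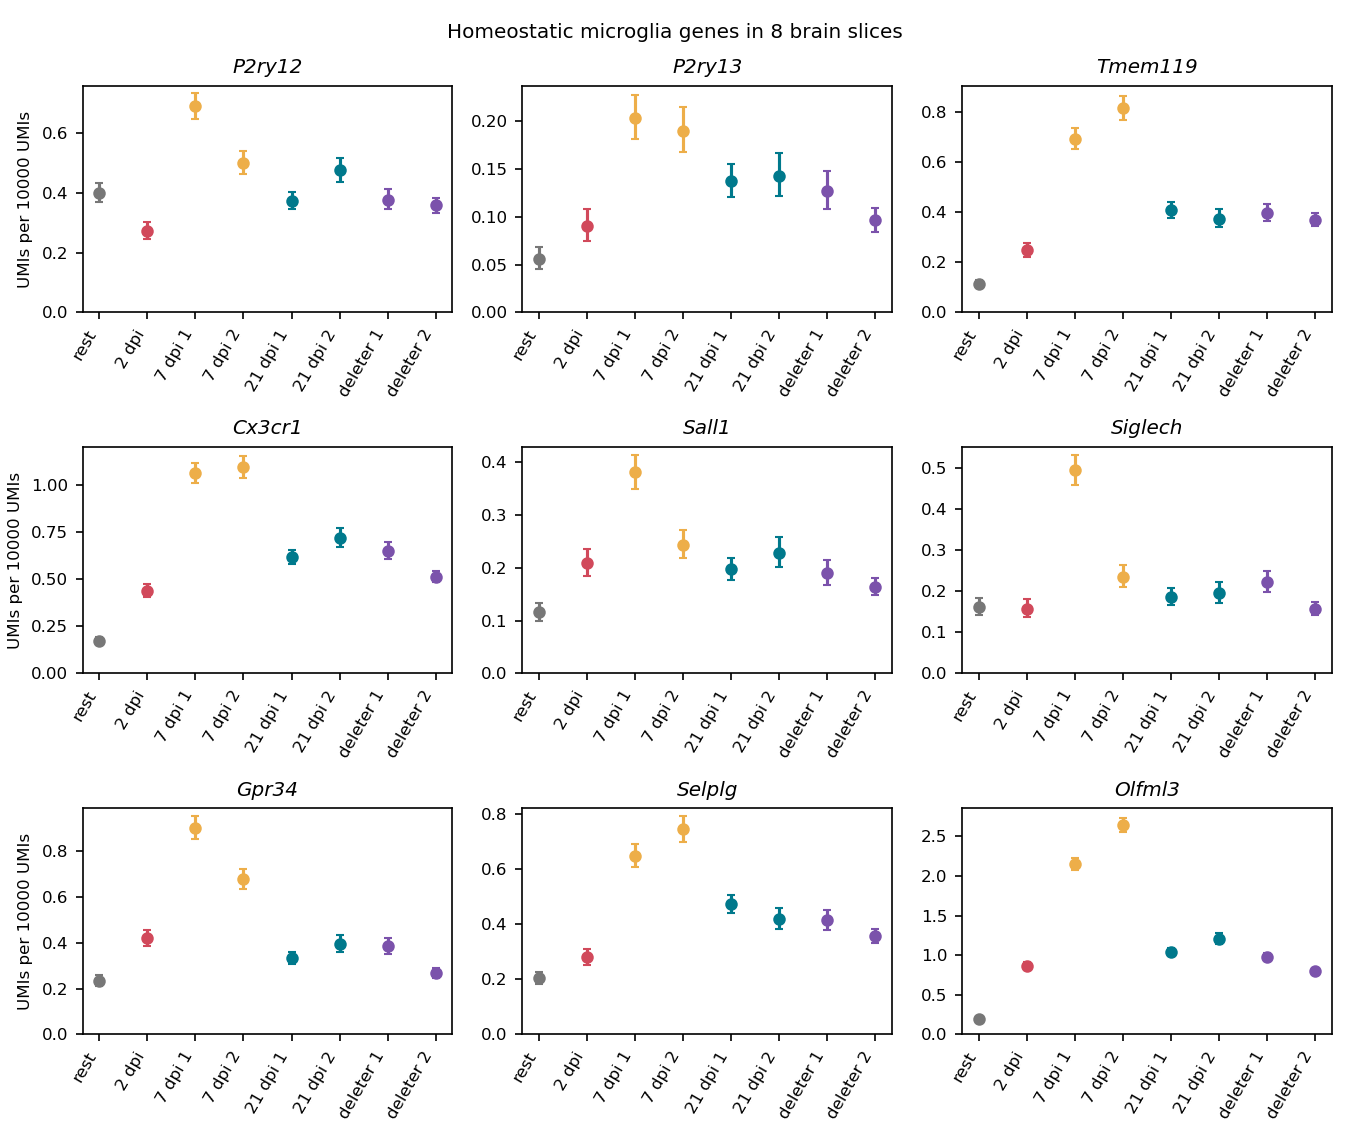
UMIs per 10000 UMIs (vertical axis, from 0) of each of the 9 genes in each of the 8 slices (horizontal axis); points are slices and bars are exact 95% Poisson intervals, which cover counting error only. Olfml3, Cx3cr1 and Tmem119 are lowest at rest and highest at 7 dpi, whereas P2ry12 is 0.40 at rest and 0.373 and 0.476 at 21 dpi.

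Only 1 slice was at rest, so its own spread was not measured, and each test against it assumes that it varies like the groups of 2. Under that assumption 7 of the 9 genes were called higher at 7 dpi than at rest and none lower (edgeR's quasi-likelihood test, Benjamini-Hochberg adjusted over all genes), where 13.8% of the 16580 genes tested were called higher and 6.67% lower. Their median log2 fold change was 1.62, against 0.05 for all genes tested. Olfml3 was higher by 3.47 ± 0.24 (log2, SE; adjusted p = 0.00581), Tmem119 by 2.59 ± 0.19 (adjusted p = 0.00581) and Cx3cr1 by 2.51 ± 0.20 (adjusted p = 0.00581). P2ry13 was higher by 1.67, Selplg by 1.62, Gpr34 by 1.61 and Sall1 by 1.29. P2ry12 (log2 fold change 0.43 ± 0.22, adjusted p = 0.207) and Siglech (1.03 ± 0.43, adjusted p = 0.137) did not pass.

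At 21 dpi the wild type had 5 of the 9 genes called higher than at rest and none lower, where 7.51% of genes were called higher and 1.76% lower. These were Olfml3 (log2 fold change 2.36 ± 0.22, adjusted p = 0.0169), Cx3cr1 (1.80 ± 0.20, adjusted p = 0.0169), Tmem119 (1.63 ± 0.18, adjusted p = 0.0169), P2ry13 (1.16 ± 0.24, adjusted p = 0.0368) and Selplg (0.97 ± 0.18, adjusted p = 0.0319). P2ry12 (-0.07 ± 0.22, adjusted p = 0.850) and Siglech (0.08 ± 0.42, adjusted p = 0.920) were the nearest to 0, and Sall1 (0.72, adjusted p = 0.147) and Gpr34 (0.47, adjusted p = 0.301) did not pass. The same single rest slice serves both comparisons. Xist, RNA of the inactive X chromosome in females, was high in the rest slice and in both 7 dpi slices and near 0 in both 21 dpi wild-type slices, which had high Y-linked counts, so sex and time cannot be told apart when the 21 dpi wild type is compared with rest or with 7 dpi. The 5 calls against rest were lost each time 1 of the 21 dpi slices was left out, which left 1 slice at that time. With the fibrotic spots removed 0 of the 9 genes passed. The shares of all genes called in these fits are not given here, so the losses do not set the 9 apart.

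Between 7 and 21 dpi in the wild type, both 7 dpi slices were above both 21 dpi slices for 9 of the 9 genes, as they were for 19.8% of the genes tested. The log2 fold changes (7 over 21 dpi) ran from 0.51 (P2ry12) to 1.14 (Gpr34), with a median of 0.71 against -0.02 for all genes. None of the 9 passed (edgeR's quasi-likelihood test, adjusted p from 0.0900 for Tmem119 to 0.373 for Sall1), where 0% of genes were called higher and 0.00603% lower. All 9 had an unadjusted p under 0.05 in that test, and DESeq2 called 5 of them. The shares of all genes past these limits are not given here, so neither count sets the 9 apart.

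Deleter and 21 dpi wild-type slices did not differ by a call in any of the 9 genes (edgeR's quasi-likelihood test, adjusted p = 0.99975 for each), where 0% of genes were called higher and 0% lower; no member had an unadjusted p under 0.05, and DESeq2 called 0. The log2 fold changes ran from -0.27 ± 0.16 (Olfml3) to 0.06 ± 0.34 (Siglech). Sex was not balanced here. The deleter slices had 1033 and 19 UMIs of Xist and 14 and 2715 Y-linked UMIs, whereas both wild-type slices had high Y-linked counts and Xist near 0.

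With 1 slice each, 2 dpi and rest were compared by their ratio, and intervals cover counting error only. As a share of all UMIs, the 9 genes summed were 1.80 times as high at 2 dpi (95% interval 1.71 to 1.89). Counted per spot, their sum was lower at 2 dpi, at 2.26 UMIs against 2.66 at rest. The median spot held 2633.5 UMIs of all genes at 2 dpi and 16158 at rest. Olfml3, Cx3cr1 and Tmem119 were higher per spot at 2 dpi, and P2ry12, P2ry13, Sall1, Siglech, Gpr34 and Selplg were lower. The ratios that follow are of shares of all UMIs. Olfml3 had the highest ratio, 4.38 (3.87 to 4.98), followed by Cx3cr1 at 2.55 (2.21 to 2.95) and Tmem119 at 2.19 (1.82 to 2.64). P2ry12 had the lowest, 0.680 (0.596 to 0.775), and Siglech was at 0.971 (0.806 to 1.17). Of the others, Sall1 was at 1.80, Gpr34 at 1.78, P2ry13 at 1.62 and Selplg at 1.36. A list of 14 general myeloid genes, called pan-myeloid below, includes Tyrobp and Fcer1g and also Csf1r and the C1q chains, which macrophages and microglia make. Its sum was at 3.83 (3.73 to 3.92).

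In the same 2 dpi slice a connected patch of 311 spots with fewer than 1000 UMIs (median 607) was found by its low counts alone. Inside it the 9 genes held 1.84 UMIs per 10000 (35 UMIs; 95% interval 1.28 to 2.56), against 3.03 in the 790 spots at distance 6 or more, a ratio of 0.607 (0.422 to 0.845). Olfml3 had 11 UMIs in the patch, Cx3cr1 5 and P2ry12 2, too few to order single genes. Pan-myeloid genes had a like ratio of 0.637, and neuronal genes a ratio of 1.54 (1.43 to 1.65).

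Tissue with at least 5 UMIs of Col1a1, the main fibrillar collagen gene, per 10000 was called fibrotic, spots 1 to 2 steps away on the hexagonal grid the ring, and spots 4 or more steps away distant. At rest 3 spots and at 2 dpi 26 spots met this minimum, so zones were compared at 7 and 21 dpi, where 112 to 392 spots a slice were fibrotic. Fibrotic spots include collagen-rich tissue along the edge of the slice. In the first 7 dpi slice 68.8% of the fibrotic spots were at an edge and their median was 4923.5 UMIs, against 16765 in its distant spots.

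**Figure D2:**
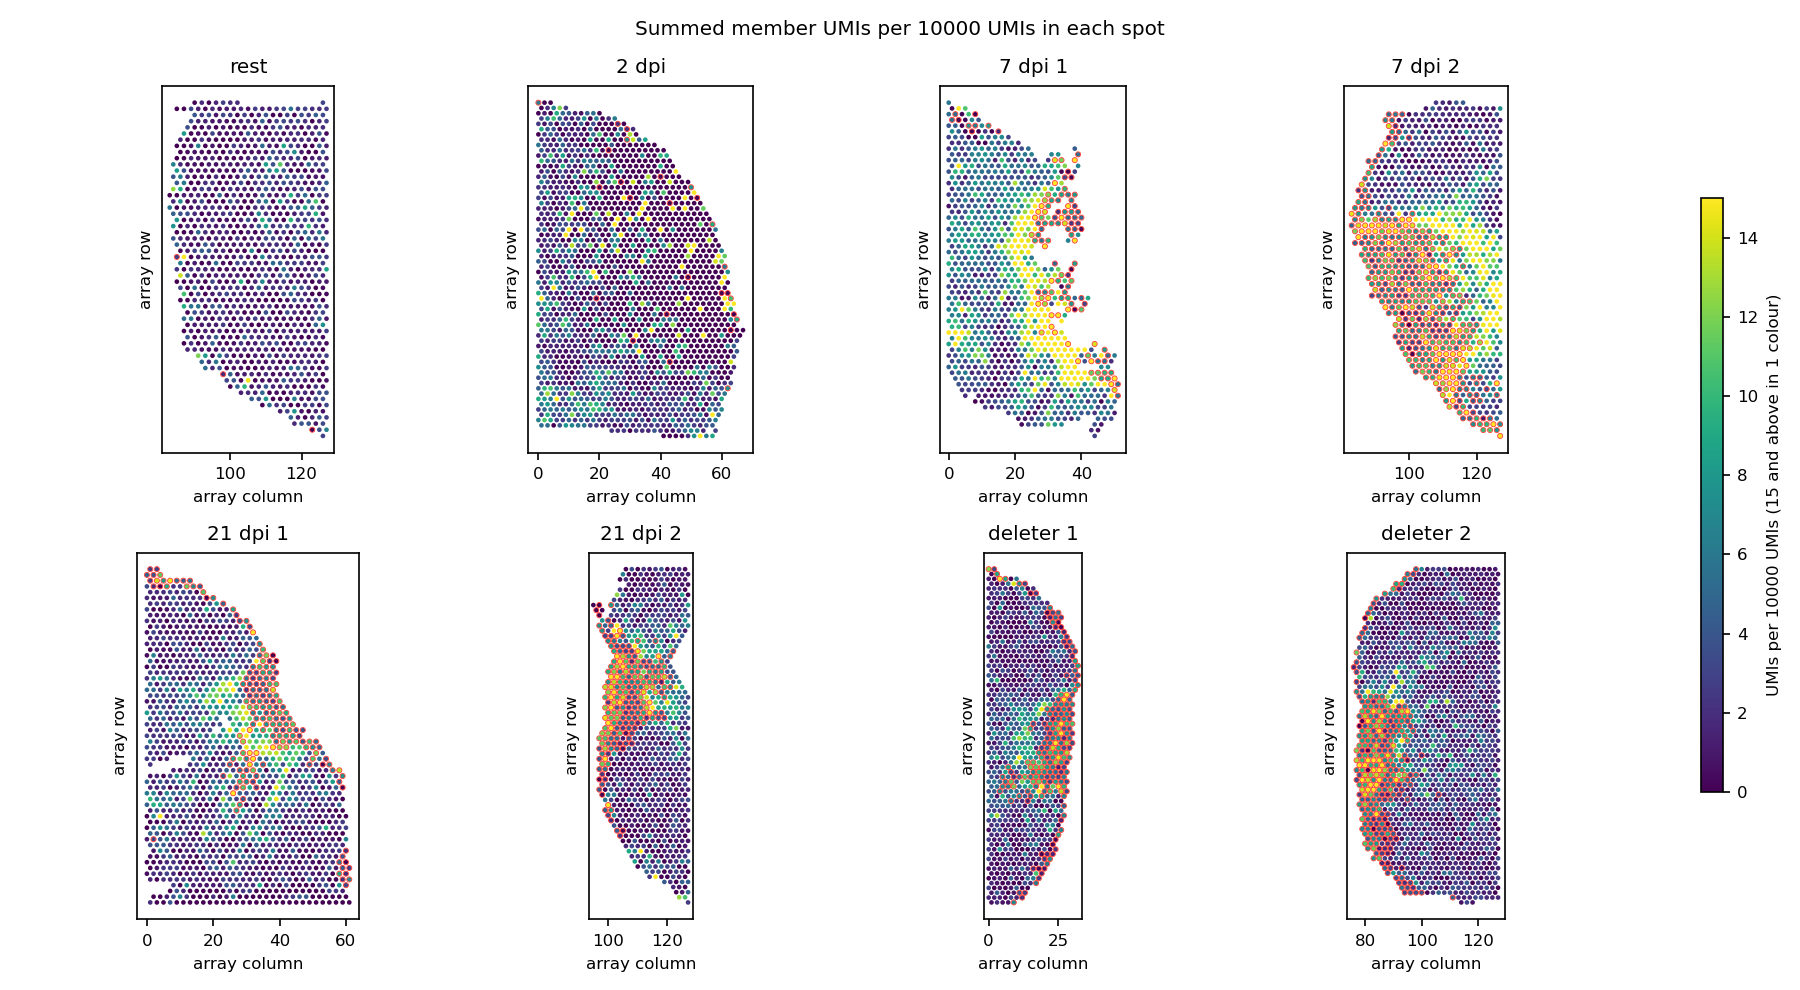
Summed UMIs of the 9 genes per 10000 UMIs in each spot of each slice, at its row and column on the Visium array; colour gives the level and outlined spots are fibrotic. High spots gather in and beside fibrotic tissue at 7 and 21 dpi, where the summed level was 6.31 to 11.02 in fibrotic spots and 1.95 to 5.37 in distant spots.

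The summed level of the 9 genes was highest in or beside fibrotic tissue in every slice at 7 and 21 dpi. It was 11.02, 15.6 and 5.37 UMIs per 10000 in the fibrotic, ring and distant spots of the first 7 dpi slice and 9.74, 8.10 and 4.36 in the second. In the 21 dpi wild-type slices it was 7.18, 5.61 and 2.57, and 7.80, 5.33 and 1.95. In the deleter slices it was 6.31, 4.70 and 2.01, and 7.05, 4.13 and 1.95. As shares of all UMIs, fibrotic and ring spots were above distant spots in 6 of 6 slices. By that measure only the first 7 dpi slice had its ring above its fibrotic spots. Counted per spot, that slice had 8.33 UMIs of the 9 genes in fibrotic and 9.89 in distant spots. Each other slice had more per fibrotic than per distant spot. Olfml3 weighs heavily in this sum. It gave 1872 of the 4279 UMIs in fibrotic spots of the second 7 dpi slice, and 695 of 1606 in those of the first 21 dpi slice. The order of fibrotic and ring spots is therefore given gene by gene below.

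Olfml3 had the widest gap between fibrotic and distant spots. It held 3.63 and 4.26 UMIs per 10000 in the fibrotic spots of the 7 dpi slices, 5.01 and 2.69 in the ring and 1.49 and 1.25 in distant spots. At 21 dpi it held 3.11 and 3.05 in fibrotic spots, 1.497 and 1.29 in the ring and 0.509 and 0.298 in distant spots. Fibrotic levels ranged from 3.05 to 4.26 over the 2 times, and distant levels were lower at 21 dpi in both slices. Fibroblast markers (5 genes) were higher in fibrotic than in distant spots, by medians of 5.765 (log2) at 7 dpi and 5.922 at 21 dpi. Fibrotic spots were chosen by their Col1a1, so this rise follows from the choice and is not a separate result. Which cells made the Olfml3 RNA was not tested. Olfml3 rose in fibrotic over distant tissue by 1.64 ± 0.24 (log2, SE) at 7 dpi (adjusted p = 0.000163) and by 2.98 ± 0.25 at 21 dpi (adjusted p = 1.74e-06).

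P2ry12 and Siglech had the smallest differences between fibrotic and distant tissue. P2ry12 was 0.862 and 0.483 in the fibrotic spots of the 7 dpi slices, 1.07 and 0.601 in the ring and 0.587 and 0.466 in distant spots. At 21 dpi it was 0.380 and 0.540 in fibrotic spots, 0.550 and 0.590 in the ring and 0.318 and 0.410 in distant spots, so the ring was the highest zone in all 4 wild-type slices. Siglech was 0.272 and 0.237 in fibrotic spots at 7 dpi against 0.515 and 0.221 in distant spots, and 0.148 and 0.165 against 0.165 and 0.178 at 21 dpi. Its ring was the highest zone in both 21 dpi wild-type slices, at 0.283 and 0.299.

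Fibrotic against distant spots, 7 of the 9 genes rose at 7 dpi and 0 fell, where 24.4% of the 14521 genes tested were called higher and 23.4% lower. At 21 dpi 7 of 9 rose and 0 fell, where 27.9% were called higher and 28.2% lower. The median log2 fold change of the 9 was 1.01 and 1.27, against -0.02 for all genes at each time. After Olfml3 the largest were Cx3cr1 (1.44 ± 0.28, adjusted p = 0.00110, at 7 dpi and 1.86 ± 0.28, adjusted p = 0.000135, at 21 dpi) and Tmem119 (1.15 ± 0.24, adjusted p = 0.00172, and 1.95 ± 0.25, adjusted p = 3.40e-05). Selplg, Gpr34, P2ry13 and Sall1 also rose at both times, by 0.80 to 1.08 at 7 dpi and 0.73 to 1.42 at 21 dpi. P2ry12 was at 0.36 ± 0.17 both times (adjusted p = 0.0980 and 0.0910), and Siglech at -0.23 ± 0.21 (adjusted p = 0.392) and -0.11 ± 0.23 (adjusted p = 0.698).

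In the ring against distant spots, 8 of the 9 genes rose at 7 dpi, where 13.2% of genes were called higher and 8.12% lower. In the 21 dpi wild type 9 of 9 rose, where 9.21% were called higher and 4.87% lower. None fell at either time. The medians were 1.19 and 1.08, against -0.02 and -0.01 for all genes. P2ry12 rose in the ring by 0.68 ± 0.16 at 7 dpi (adjusted p = 0.0116) and 0.64 ± 0.17 at 21 dpi (adjusted p = 0.0256). Siglech was at 0.07 ± 0.20 at 7 dpi (adjusted p = 0.825) and rose by 0.74 ± 0.21 at 21 dpi (adjusted p = 0.0337). In the deleter slices, in the same fit, neither passed in the ring. P2ry12 was at 0.36 ± 0.17 there (adjusted p = 0.166) and Siglech at 0.36 ± 0.20 (adjusted p = 0.245), while each other member passed. Cx3cr1 rose by 1.74 and 1.51, Gpr34 by 1.52 and 1.36, Olfml3 by 1.52 and 1.77, and Sall1 by 1.19 and 1.14. The calls at 7 dpi were lost without the first 7 dpi slice, and fewer genes passed at 21 dpi without 1 or the other 21 dpi slice. Each of these fits left 1 slice at that time. The shares of all genes called in them are not given here, so the losses do not set the 9 apart.

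Which of the 2 near zones was higher split the genes. Olfml3, Tmem119 and Selplg were higher in fibrotic than in ring spots in 5 of the 6 slices, the first 7 dpi slice being the exception for each. Sall1 and Siglech were higher in the fibrotic spots in 0 of 6, P2ry12 in 1 of 6, P2ry13 and Gpr34 in 2 of 6, and Cx3cr1 in 3 of 6. These are counts with no test.

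The step by step profile showed the same split. P2ry12 peaked 1 or 2 steps outside fibrotic tissue in all 6 slices, for example at 0.547 and 0.554 in the first 21 dpi slice against 0.380 inside it. Sall1 peaked at 1 or 2 steps in all 6 as well. Olfml3 peaked inside in 5 of 6 and fell off with each step in the second 21 dpi slice, from 3.05 through 1.58, 0.850 and 0.610 to 0.183 at 9 or more steps. Siglech had its highest level at 1 step in 4 of the 6 slices, at 3 steps in the second 7 dpi slice and at 9 or more steps in the first.

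**Figure D3:**
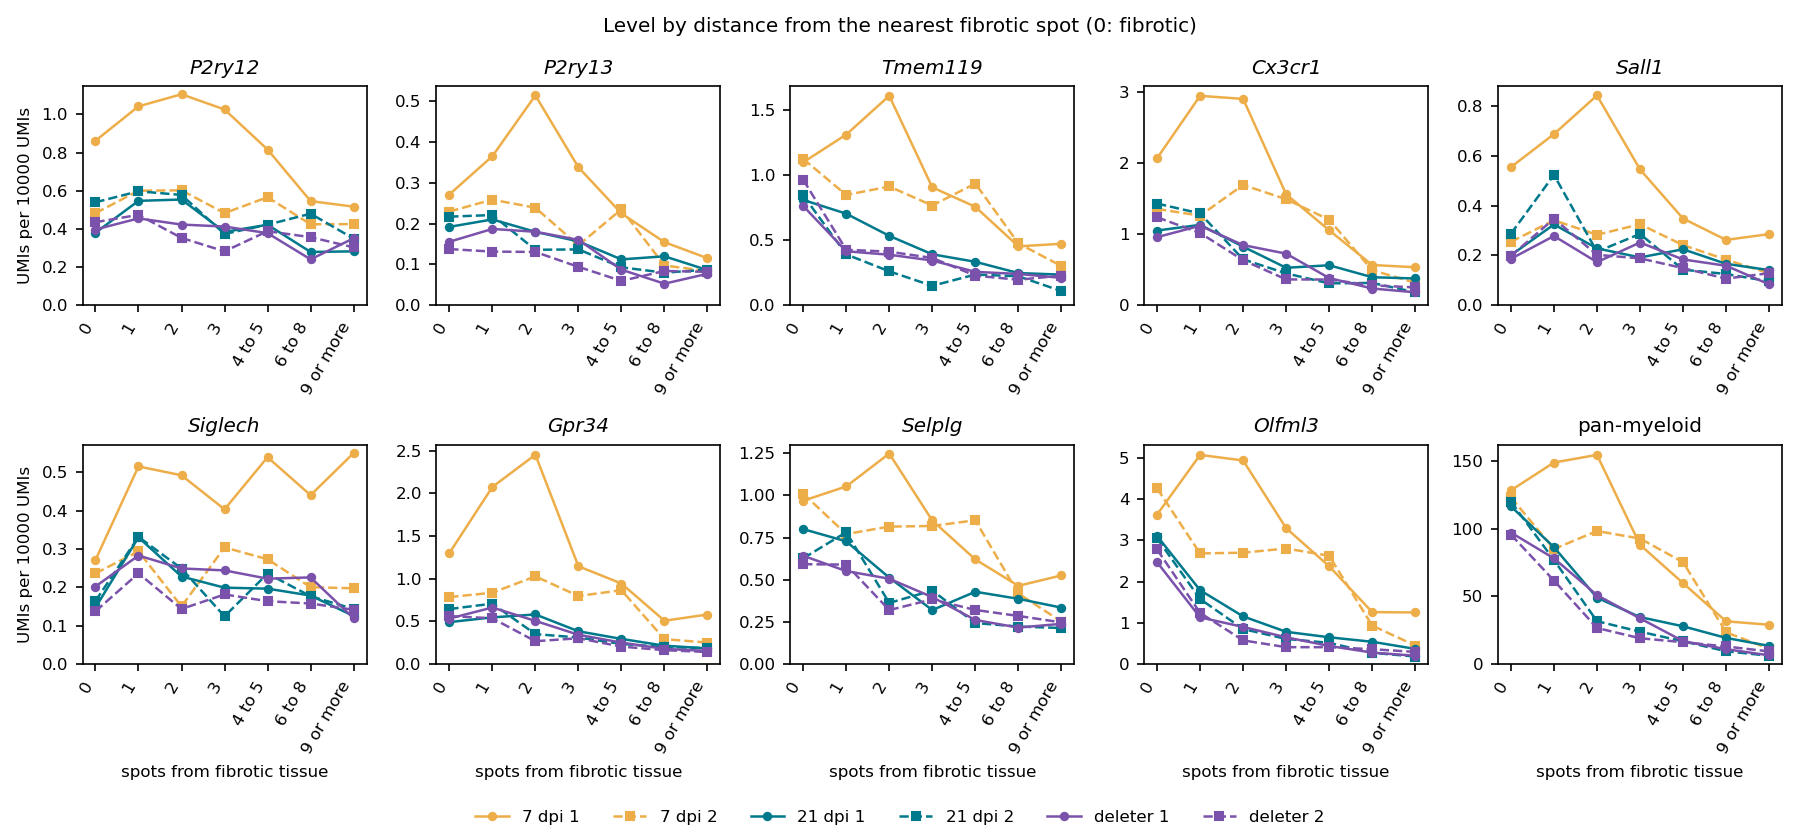
UMIs per 10000 UMIs (vertical axis, from 0) by distance in spots from the nearest fibrotic spot (horizontal axis, 0 is fibrotic). Panels show each of the 9 genes and the pan-myeloid sum, with a line for each slice. Olfml3 and the pan-myeloid sum are highest inside fibrotic tissue in all slices but the first 7 dpi slice, and P2ry12 is highest 1 or 2 spots outside it.

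The rise from distant to fibrotic tissue was not shown to differ between 7 and 21 dpi for any of the 9 genes. In the test of that difference 0 of the 9 were called (edgeR's quasi-likelihood test), where 0.0207% of genes were called higher and 0.193% lower. Of the 9, 2 had an unadjusted p under 0.05 in that test and DESeq2 called 1, and the shares of all genes for these counts are not given here. Olfml3 had the largest difference, -1.34 ± 0.34 (log2, 7 minus 21 dpi; adjusted p = 0.139), followed by Tmem119 at -0.80 ± 0.34 (adjusted p = 0.364). The deleter slices, in the same fit, had fibrotic over distant log2 fold changes of 2.99 for Olfml3, 1.97 for Cx3cr1, 1.91 for Tmem119, 0.34 for P2ry12 and -0.07 for Siglech.

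Most genes of a second microglia list were also called higher. Of 20 other microglia genes 19 were tested: 14 were higher and 1 lower at 7 dpi against rest, 12 higher at 21 dpi against rest, and 14 higher and 1 lower in fibrotic over distant tissue at each time. Their medians were 2.22, 1.58, 1.29 and 1.88. The summed level of the list was 50.5 UMIs per 10000 at rest, 42.8 at 2 dpi, 83.4 and 91.9 at 7 dpi and 80.8 and 82.9 in the 21 dpi wild type. It was thus below rest at 2 dpi, where the sum of the 9 was above it. The list includes Cst3, Sparc, Mef2c and Bin1, and shares Csf1r with the pan-myeloid list and Tgfbr1 with the TGF-beta signal genes below. RNA of other cell types was not separated from its sum, so this contrast does not set the 9 apart from other microglia genes. Fcrls, an Fc receptor-like protein, rose by 4.14 at 7 dpi, whereas Mef2c, a transcription factor that neurons also express, fell by 1.06. The gene called lower in fibrotic tissue was Adgrg1 at 7 dpi (-0.56, adjusted p = 0.0388) and Mef2c at 21 dpi (-1.53, adjusted p = 0.000727).

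Of the 12 TGF-beta signal genes, 6 were called higher at 7 dpi against rest, 5 at 21 dpi, and 8 and 6 in fibrotic over distant tissue at 7 and 21 dpi, with none lower. The ligand Tgfb1 rose by 4.004 at 7 dpi (adjusted p = 0.00720) and 3.16 at 21 dpi (adjusted p = 0.0209), the receptors Tgfbr2 by 2.65 and 2.51 and Tgfbr1 by 1.95 and 1.52, and Nrros, which tethers the latent ligand on microglia, by 2.70 and 2.12. Smad3, an effector (0.28, adjusted p = 0.378, and 0.30, adjusted p = 0.391), and the feedback inhibitor Smad7 (0.14 and 0.28) did not pass. Spi1, which encodes PU.1, rose by 3.44 and 2.73.

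The median changes of the pan-myeloid genes were larger than those of the 9. All 14 pan-myeloid genes were called higher in each of the 6 comparisons with rest or with distant tissue, with medians of 3.57 and 2.97 (7 and 21 dpi against rest), 1.96 and 3.05 (fibrotic) and 1.84 and 2.07 (ring). Of the 14 disease-associated genes 13 were tested, and 12, 12, 13, 13, 12 and 13 were called higher. Apoe rose by 2.21 at 7 dpi and 2.67 at 21 dpi, Lpl by 3.60 and 2.67 and Spp1 by 8.58 and 6.06.

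Per UMI of the pan-myeloid genes, the summed UMIs of the homeostatic genes were lower after injury. So were the sums of the other microglia list and of the disease-associated list. The pan-myeloid genes themselves rose, and their RNA per cell was not measured, so these ratios are not levels per myeloid cell. The 9 genes summed to 33.9 UMIs per 100 pan-myeloid UMIs at rest, 15.9 at 2 dpi, 12.3 and 9.04 at 7 dpi, 8.97 and 8.60 at 21 dpi, and 8.17 and 10.3 in the deleters. The rest slice was the highest of the 8, and the mean of the 7 dpi slices was 0.315 ± 0.068 (SD, n = 2) of it. P2ry12 went from 8.19 per 100 pan-myeloid UMIs at rest to 1.46 at 2 dpi and 0.634 to 1.196 in the later slices, and Siglech from 3.32 to 0.843 and then 0.298 to 0.840. Olfml3 was 4.01 at rest, 4.60 at 2 dpi and 2.13 to 3.66 later.

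The disease-associated list went from 453 UMIs per 100 pan-myeloid UMIs at rest to 181 at 2 dpi, 217 and 250 at 7 dpi and 321 to 385 at 21 dpi, deleters included. The other microglia list went from 1036 at rest to 116 to 242 in the injured slices. Rest was the highest slice for all 3 sums. At rest the other microglia list held 82662 UMIs and the disease-associated list 36163, against 7981 of the pan-myeloid list. RNA of other cell types was not separated from these sums. They therefore cannot show whether the fall was particular to the 9 genes. The median disease-associated gene rose against rest by 3.95 at 7 dpi and 3.95 at 21 dpi. These medians lay above the pan-myeloid medians of 3.57 and 2.97. The medians of the 9 genes (1.62 and 0.97) and of the other microglia list (2.22 and 1.58) lay below them. This order of medians was not tested and rests on 1 rest slice. Single disease-associated genes differed, with Apoe below the pan-myeloid median and Spp1 above it at both times. Without the C1q chains in the denominator the 9 genes summed to 55.1 at rest, 28.3 at 2 dpi, 23.8 and 17.6 at 7 dpi and 15.2 to 20.2 at 21 dpi.

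Within slices at 7 and 21 dpi the ratio of the 9 genes to the pan-myeloid genes was highest in distant and lowest in fibrotic spots. It was 14.8 and 12.8 in distant, 10.3 and 8.97 in ring and 8.58 and 7.91 in fibrotic spots at 7 dpi, and 13.2 and 19.5, 8.13 and 9.02, and 6.16 and 6.50 at 21 dpi. The deleter slices had 16.7 and 16.9, 7.05 and 8.95, and 6.49 and 7.36. The order distant, ring, fibrotic held in 6 of 6 slices, the reverse of the order in UMIs per 10000 in 5 of them. Spots 3 steps away lay between ring and distant in 5 of 6 slices, and in the second 7 dpi slice they were at 8.56, below its ring.

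**Figure D4:**
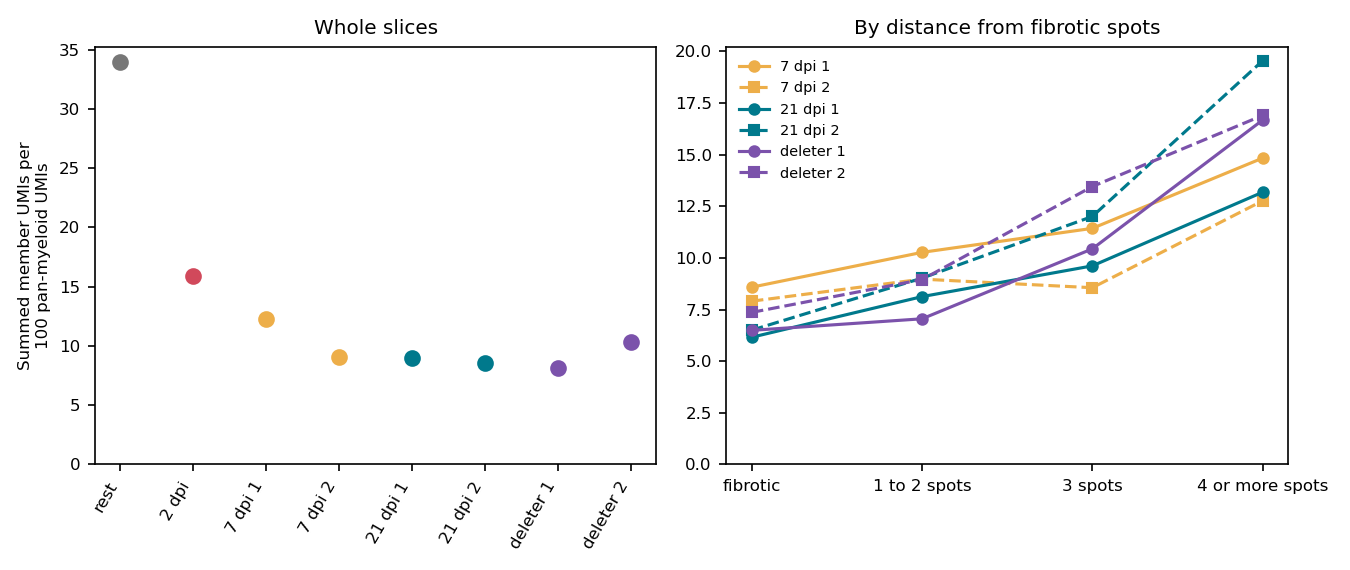
Summed UMIs of the 9 genes per 100 pan-myeloid UMIs (vertical axes, from 0) in whole slices (left) and by distance from fibrotic spots in the 6 injured slices at 7 and 21 dpi (right). The value is 33.9 at rest and 8.17 to 15.9 after injury, and is lowest in fibrotic spots in all 6.

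Scaling each sum to its pan-myeloid UMIs in place of its total, an alternative chosen after seeing the data, lowered nearly all genes. It moved the median of all genes to -3.59 and -2.99 (7 and 21 dpi against rest) and -1.97 and -3.13 (fibrotic over distant at 7 and 21 dpi), and the medians of the 9 genes, -2.01, -2.07, -0.91 and -1.79, lay above these. At 7 and at 21 dpi against rest 0 of the 9 genes were higher and 8 lower, all but Olfml3, where 90% and 87.6% of all genes were called lower and 0.826% and 1.06% higher, with log2 fold changes of -3.18 and -3.13 for P2ry12 and -0.20 and -0.69 for Olfml3. In fibrotic over distant tissue 7 were lower at 7 dpi and 8 at 21 dpi, where 81.8% and 88.8% of all genes were called lower and 2.67% and 2.02% higher. These shares are near those of the 9 genes. Counted per spot instead, 1 gene (Olfml3, 0.60) was higher and 2 were lower (P2ry12, -0.68, and Siglech, -1.30) in fibrotic tissue at 7 dpi, where the median gene was at -1.05, 8.11% of genes were called higher and 63.3% lower, and 7 were higher at 21 dpi, where 24.5% were called higher and 22.8% lower.

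Markers of border-associated macrophages, monocytes and neutrophils were also higher in the fibrotic tissue. The part of these and other immune cells in the results was not tested. Border-associated macrophage markers (8 genes) summed to 3.22 to 5.02 UMIs per 10000 in the fibrotic spots of the 6 slices and 0.102 to 0.514 in distant spots, with 7 of 8 called higher at each time. Monocyte markers (6 genes: Ly6c2, Ccr2, Plac8, Chil3, Vcan and Fn1) summed to 8.09 to 15.1 and 0.390 to 1.34, with 6 of 6 called higher. The paper names Fn1 among its myofibroblast markers, so this sum in collagen-rich spots is not of monocytes alone. Neutrophil markers (5 genes) summed to 1.03 to 4.64 and 0.0945 to 0.311, with 4 called higher at 7 dpi and 5 at 21 dpi. In fibrotic spots each marker of these 3 lists had UMIs in all 6 slices, except Retnlg, which had 0 in the first 7 dpi slice. Lymphocyte and plasma cell markers were at 0.0945 to 0.148 in fibrotic spots at 7 dpi, with Cd3e at 0 UMIs in both slices. Their summed level was higher in the distant spots of both these slices. It was 9.20 to 35.3 in fibrotic spots of the 21 dpi wild-type and deleter slices, above the distant spots of each. Of the 6 tested, 1 was called higher and 1 lower at 7 dpi, and 5 higher and 1 lower at 21 dpi. Dendritic cell markers, which count Siglech itself, were at 0.210 to 0.308 in fibrotic and 0.2002 to 0.585 in distant spots. In the first 7 dpi slice Siglech gave 23 of their 25 UMIs in fibrotic and 588 of 668 in distant spots. This sum therefore largely repeats the values of Siglech. Neuronal markers were at 9.08 to 14.9 in fibrotic and 33.0 to 66.6 in distant spots.

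Over the 18 sums of slice and zone, the 10 genes whose log2 level was most like that of the summed 9 included Lair1 (Pearson r = 0.991), Lgmn (0.989), Ctsd (0.988) and Fcrls (0.986). The sums of a slice share a library, and zones differ in depth and in cell makeup, so this is a description of 18 dependent points. Fcrls is itself a microglia gene.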

How the data were processed

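The authors aligned the reads to mm10 with Space Ranger 2.0.0 and deposited UMI counts per gene and spot, with spot positions, for each capture area; the counts are raw and not normalized. Here spots under tissue were joined into connected pieces, 2 per area and 8 slices in all, and the rest and 2 dpi pieces, which share an area, were told apart by the outline of the tissue and their number of spots. No column was left unused. The 9 genes, the gene lists, the minimum of 5 Col1a1 UMIs per 10000 and the distances were chosen with earlier results of these data known. The rule for named genes took the 9 members, plus the 10 genes most like them, of which 4 are printed; genes of other lists were named as examples after their values were seen.

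Counts were summed per slice (8 sums, 16580 genes, 3 residual degrees of freedom) and per slice and zone (18 sums, 14521 genes, slice as a block, 6 residual degrees of freedom; at least 10 spots a sum). They were tested with edgeR 4.0.16 in R 4.3.3 (filterByExpr, TMM, quasi-likelihood test, two-sided, Benjamini-Hochberg threshold 0.05). SE is the log2 fold change over the square root of F. Slices are the replicates. The lone slices at rest and 2 dpi are assumed to vary like the others. Those 2 were compared with each other by ratio, with exact 95% intervals from Poisson counts that cover counting error only. Their UMIs per spot are given without a test. Alternatives were DESeq2 1.42.0, no filter on low counts, library totals without TMM, other limits for spots and zones, fits without the slice block and leaving out each slice; the scaling to pan-myeloid UMIs, UMIs per spot and a minimum of 5000 UMIs a spot were added after seeing the data. The fits were checked on simulated counts in which 200 genes were changed. The slice fit (7 against 21 dpi) recovered 67% of them, with 3.6% of its calls false. The zone fit (fibrotic over distant at 7 dpi) recovered 52%, with 4.59% false, so a gene that is not called may still differ. Clec7a, 1 of the listed genes, was not used here, and a further gene is not reported here.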

Additional observations from a re-analysis of the deposited data

How the results depend on the processing

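Calls are numbers of the 9 genes, higher unless said otherwise. At 7 against 21 dpi, 0 with edgeR, 5 passed with DESeq2 and 5 with no filter on low counts (Cx3cr1, Gpr34, Olfml3, Selplg and Tmem119), 1 (Olfml3) with fibrotic spots removed and 2 (Olfml3 and Tmem119) per spot. Scaled to pan-myeloid UMIs, 0 were higher at 7 dpi against rest, 21 dpi against rest, fibrotic at 7 and 21 dpi, and ring at 7 and 21 dpi. At 21 dpi against rest 0 passed without fibrotic spots. Per spot, 1 was higher in fibrotic tissue and 3 in the ring at 7 dpi. A Col1a1 minimum of 10 gave 4 in fibrotic tissue at 21 dpi, and a minimum of 2 gave 3 in the ring at 21 dpi. For the difference between times, 1 (Olfml3, lower) passed with DESeq2, with no filter and with deleter slices counted as 21 dpi slices. A Col1a1 minimum of 2 gave 2 (Olfml3 and Tmem119, lower). Per spot 9 were lower, where the median gene was at -1.03, and 49.5% of genes were called lower and 0.062% higher. Where no share of all genes is given for an alternative, its count does not set the 9 genes apart. The cause of each change was not tested.

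Leaving out each slice in turn gave 0 to 0 calls at 7 against 21 dpi, for deleters and for the difference between times, 6 to 8 at 7 dpi against rest, 0 to 6 at 21 dpi against rest, 5 to 7 in fibrotic tissue at each time, 0 to 8 in the ring at 7 dpi and 3 to 9 in the ring at 21 dpi. Of the per-myeloid ratio of 7 dpi to rest, 0.315, the range leaving out 1 of the 9 genes at a time was 0.240 (without Olfml3) to 0.380. Zones were compared within slices, with the slice as a block. Without that block 6 genes passed in each zone comparison and 0 in the difference. The shares of all genes called without the block or without a slice are not given here, so these counts do not set the 9 apart. Between groups no paired fit could be made, as the labels give them no shared replicate numbers.

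Single log2 fold changes kept direction and side of the threshold in 936 cases, passed no longer in 83, newly passed in 31 and changed sign in 67. Apart from the scaling to pan-myeloid UMIs these were, at 21 dpi against rest, P2ry12 at 0.082 with library totals and 0.0815 without 21 dpi slice 1 (-0.244 without slice 2), and Siglech at -0.033 per spot; in fibrotic tissue at 7 dpi per spot, P2ry12 -0.68, P2ry13 -0.11, Sall1 -0.26 and Gpr34 -0.034, and Siglech 0.16 without slice 1; in fibrotic tissue at 21 dpi, P2ry12 -0.44 with a Col1a1 minimum of 10, and Siglech 0.47 with a minimum of 2 and 0.027 with distant from 6 steps; and for Siglech in the ring at 7 dpi, -0.016 with no filter, -0.20 with a minimum of 2 and -0.61 per spot. Siglech was called lower in fibrotic tissue at 7 dpi with a Col1a1 minimum of 10 (-0.59), without slice 2 (-0.85), per spot (-1.30) and scaled to pan-myeloid UMIs (-2.23). At 2 dpi the RNA-poor patch gave a members' ratio of 0.729 at a threshold of 2000 UMIs and 0.818 at 500, where it held 12 spots (0.0207 to 4.56).

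Scaling to pan-myeloid UMIs, which lowers every gene that rose less than that list, turned the sign of another 53 log2 fold changes. In the comparison of 7 dpi against rest they were P2ry12 -3.18, Siglech -2.55, Sall1 -2.31, Selplg -2.04, Gpr34 -2.01, P2ry13 -1.97, Cx3cr1 -1.14, Tmem119 -1.07 and Olfml3 -0.20. In the comparison of 21 dpi against rest they were Siglech -2.97, Gpr34 -2.59, Sall1 -2.33, Selplg -2.08, P2ry13 -1.89, Tmem119 -1.41, Cx3cr1 -1.25 and Olfml3 -0.69. In fibrotic tissue at 7 dpi they were P2ry12 -1.54, Sall1 -1.13, P2ry13 -1.02, Gpr34 -0.91, Selplg -0.87, Tmem119 -0.78, Cx3cr1 -0.46 and Olfml3 -0.30. In fibrotic tissue at 21 dpi they were P2ry12 -2.78, Sall1 -2.33, P2ry13 -1.98, Selplg -1.79, Gpr34 -1.69, Cx3cr1 -1.20, Tmem119 -1.16 and Olfml3 -0.096. In the ring at 7 dpi they were Siglech -1.74, P2ry12 -1.11, Selplg -0.82, Tmem119 -0.66, Sall1 -0.63, P2ry13 -0.50, Olfml3 -0.31, Gpr34 -0.30 and Cx3cr1 -0.071. In the ring at 21 dpi they were P2ry12 -1.54, Siglech -1.43, P2ry13 -1.17, Selplg -1.10, Tmem119 -1.07, Sall1 -0.96, Gpr34 -0.79, Cx3cr1 -0.59 and Olfml3 -0.35. In the comparison of 7 against 21 dpi they were P2ry13 -0.085 and P2ry12 -0.051.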
